A study of Homo sapiens with 8 samples.

Results

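The aryl hydrocarbon receptor (AHR) pathway and the CYP1 enzymes were followed in human intestinal epithelial cells (hIECs) exposed to particulate matter 10 (PM10). The 9 genes were taken by symbol: AHR, ARNT, ARNT2, AHRR, TIPARP, CYP1A1, CYP1A2, CYP1B1 and CYP1B1-AS1. They filled 10 of the 60558 rows of the expression table, which held 59048 symbols, because AHRR was listed under 2 identifiers. RNA-seq covered 4 groups with 2 libraries each, and every library came from hIECs made from H9, an established line of human embryonic stem cells. Normal hIECs received no added cytokine or particle, and PM10-treated normal hIECs received PM10 (the reference dust ERM-CZ100) at 100 μg/ml for the last 7 days. Inflamed hIECs received IFNγ and TNFα at 50 ng/ml each for 10 days, and PM10-treated inflamed hIECs received both the cytokines and the dust. All groups shared the same differentiation medium, which held EGF, the Wnt inhibitor Wnt-C59 and valproic acid, and the sample records give 10 days of treatment for all of them. The cells were differentiated in bulk and were not sorted. Nothing in the records states that the 2 libraries of a group came from separate cultures, so the p-values below measure the spread between these libraries, which may be technical.

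AHR is a ligand-activated transcription factor of the bHLH-PAS family that waits in the cytosol with HSP90 and p23. Planar aromatic molecules, among them the polycyclic aromatic hydrocarbons carried by combustion particles, and tryptophan metabolites bind it, after which it enters the nucleus, pairs with ARNT and binds the xenobiotic response element. CYP1A1, CYP1A2 and CYP1B1 oxidise many of these ligands, AHRR competes with AHR for ARNT, and TIPARP is an ADP-ribosyltransferase that marks AHR for removal. In the gut, AHR is known for its part in barrier upkeep and in sensing diet and microbial products.

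Values were FPKM, fragments scaled to transcript length and to the mapped total, so levels of different genes can be set side by side per length. The lowest value above 0 lay between 0.164 and 0.228 FPKM in the 8 libraries and was shared by 28 to 47 genes in each, so no gene was listed between 0 and that level. No read counts were used. Of the summed FPKM, 17.02% and 24.2% fell on mitochondrially encoded genes in normal hIECs, 20.4% and 20.2% in PM10-treated normal hIECs, and from 15.5% to 16.9% in the 4 libraries with cytokines. Normal replicate 2 thus stood apart from its partner, and the PM10 changes of the members in normal hIECs that rest on it are given with and without it. Of the 60 tested members and pathway genes, 11 (18.3%) were called with PM10 in normal hIECs, where 9.23% of all tested genes were called. All 11 kept their direction without this library, though some lost their call. Changes are differences of mean log2(FPKM + 1), given with standard errors, and a gene was called when limma gave an adjusted p under 0.05 over the 14206 genes that reached 1 FPKM in 2 or more libraries. An exact permutation test of 2 libraries against 2 cannot give a p below 0.333, so it was not used for single genes.

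The labelled cell type was checked against its markers, most of which were absent or near 0. The name hIEC is therefore kept only as the name the study gave the cells. Of 16 intestinal epithelial markers, 9 were at 0 in all 8 libraries, among them CDX2, VIL1, LYZ, MUC2 and CHGA. CDH1 was above 0 in only 1 library, at 0.221 FPKM, and EPCAM ran from 0 to 0.622 FPKM. The list summed to 659 and 666 FPKM in normal hIECs, 616 and 652 in PM10-treated normal hIECs, 361 and 356 in inflamed hIECs, and 318 and 299 in PM10-treated inflamed hIECs, and KRT8 and KRT18 held most of that sum. LGR5, an intestinal stem cell marker of the same list, went the other way, at 2.63 and 2.01 FPKM in normal hIECs, 2.33 and 2.31 with PM10, 5.68 and 5.26 in inflamed hIECs, and 8.28 and 7.92 with both, called higher with cytokines (log2 change 0.97) and with PM10 in inflamed hIECs (0.49). KLF5 was called higher with PM10 in normal hIECs (0.44) and KRT18 lower with PM10 in inflamed hIECs (−0.35), and SOX9 fell with cytokines (−1.63). All 11 mesenchymal markers were above 0 in every library, with a sum above that of the epithelial list in each. They summed to 5112 and 5097 FPKM in normal hIECs, 4424 and 4449 with PM10, 5791 and 5864 in inflamed hIECs, and 5133.5 and 5116 with both, so that both PM10-treated pairs lay below their untreated pairs. PM10 lowered 3 and raised 1 of the 11 in normal hIECs, where 9.23% of all genes were called, and lowered 6, among them COL3A1 (log2 change −0.59) and DCN (−0.72), and raised 1 in inflamed hIECs (limma), where 15.2% were. Cytokines without PM10 raised 5 of the 11, LUM the most (1.31), and lowered 4, PDGFRA the most (−0.69), where 56.2% of all genes were called. The list was led by COL3A1 in the 4 libraries without cytokines and by TAGLN in the 4 with them. Neuronal markers summed to 188 and 180 FPKM in normal hIECs, 198 and 205 with PM10, 109 and 109.6 in inflamed hIECs, and 129.9 and 127 with both, with ELAVL3 and ELAVL4 at 0. Cytokines without PM10 lowered 2 of them, STMN2 (log2 change −1.14), the most abundant, and TUBB3 (−0.28). They raised 1, SYP (0.42), where 56.2% of all genes were called. With PM10 in inflamed hIECs, STMN2 (0.25) and SYP (0.70) were called higher. The 4 endothelial markers were at 0 throughout, the immune markers CD14, CD3E and MS4A1 likewise, and the pluripotency markers POU5F1, NANOG and LIN28A too. Other markers of those lists were low but moved with the groups. PTPRC lay between 0.253 and 0.524 FPKM and SOX2 between 0.714 and 0.884 FPKM in the 4 libraries without cytokines, and both were at 0 with them. CD68, a macrophage and lysosome marker, was at 0.333 and 0.399 FPKM in inflamed hIECs and at 1.11 and 1.83 with both treatments, and reached 1 FPKM in these last libraries alone. The part of these markers in the results below was not tested, and in bulk RNA fewer cells of a type and less RNA per cell cannot be told apart. The cytokine response was plain in the libraries: CXCL10, an interferon-induced chemokine, stood at 1.73 and 1.27 FPKM in normal hIECs and at 1314 and 1283 in inflamed hIECs.

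The receptor was expressed at a modest level and was higher with cytokines. AHR (ENSG00000106546, chr7:16916359-17346152, plus strand; positions here are GRCh38, GENCODE 44) measured 3.38 and 2.75 FPKM in normal hIECs, 2.59 and 2.15 in PM10-treated normal hIECs, 5.36 and 5.28 in inflamed hIECs, and 5.91 and 5.88 in PM10-treated inflamed hIECs. The libraries with cytokines all lay above those without, and within each of these sets the pairs with and without PM10 did not overlap, PM10 being lower in normal and higher in inflamed hIECs. Cytokines raised AHR by 0.64 ± 0.10 on the log2 scale without PM10 (limma, adjusted p = 0.00111) and by 1.04 ± 0.10 with PM10 (adjusted p = 7.05e-05). PM10 itself did not pass the test, with −0.27 ± 0.10 in normal hIECs (adjusted p = 0.122) and 0.13 ± 0.10 in inflamed hIECs (adjusted p = 0.413). The change in normal hIECs was −0.38 without normal replicate 2 and −0.16 without normal replicate 1. The difference between those PM10 changes, the interaction, was 0.40 ± 0.14 and did not pass either (adjusted p = 0.142).

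The partners moved little. ARNT (ENSG00000143437, chr1:150809713-150876708, minus strand), the nuclear partner that AHR shares with the hypoxia factors, was more abundant than AHR, ARNT2 and AHRR in every library, between 6.56 and 9.75 FPKM. Its levels were 8.21 and 8.02 FPKM in normal hIECs, 9.75 and 9.04 with PM10, 7.46 and 6.56 in inflamed hIECs, and 7.08 and 7.48 with both. It was lower in PM10-treated inflamed than in PM10-treated normal hIECs, by a log2 change of −0.33 ± 0.07 (limma, adjusted p = 0.0062), and was called in no other comparison. ARNT2 (ENSG00000172379, chr15:80404350-80597933, plus strand), a paralogue best known from the nervous system, ran from 3.61 to 4.68 FPKM and was called in no comparison, its 4 group changes lying between 0.12 and 0.15 on the log2 scale. None of the genes that share exon bases with AHR or ARNT2 in the annotation was above 0 in any library.

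TIPARP, a direct AHR target that feeds back on the receptor, rose with PM10 in both kinds of hIEC. Its gene (ENSG00000163659, chr3:156673235-156706770, plus strand) shares no exon bases with another gene. Levels were 3.704 and 2.71 FPKM in normal hIECs, 5.15 and 5.13 in PM10-treated normal hIECs, 3.37 and 3.20 in inflamed hIECs, and 8.13 and 8.11 in PM10-treated inflamed hIECs. Both PM10-treated pairs lay above all 4 untreated libraries, and the untreated normal and inflamed pairs overlapped. PM10 raised it by 0.55 ± 0.11 in normal hIECs (limma, adjusted p = 0.0247) and by 1.09 ± 0.11 in inflamed hIECs (adjusted p = 0.00137), which ranked 167 and 36 among the 14206 changes from the top. Cytokines alone gave 0.04 ± 0.11 (adjusted p = 0.788), whereas with PM10 present the inflamed libraries were higher by 0.57 ± 0.11 (adjusted p = 0.00245). The interaction of 0.53 ± 0.15 did not pass (adjusted p = 0.0858), and over the alternatives it ran from 0.36 to 0.70 with an adjusted p from 0.0106, without normal replicate 2, to 0.215. The call in normal hIECs was near the threshold. Without normal replicate 2 the change was 0.38 (adjusted p = 0.0353) and without normal replicate 1 it was 0.73 (adjusted p = 0.00389), while leaving out any of the other 6 libraries gave an adjusted p from 0.0508 to 0.122.

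AHRR, the repressor, was near the lowest measurable level and below the minimum for the test. The row ENSG00000286169 read 0.296 and 0.354 FPKM in normal hIECs, 0.906 and 1.11 in PM10-treated normal hIECs, 0 and 0.265 in inflamed hIECs, and 0.499 and 0.512 in PM10-treated inflamed hIECs. In each background the PM10-treated pair lay above the untreated pair. The other row, ENSG00000063438 (chr5:321714-438291, plus strand), was above 0 in 1 library of each PM10-treated group, at 0.237 and 0.221 FPKM, and at 0 in the other 6. Only this second identifier is in GENCODE 44, where 5561 of its exon bases (58.7%) are shared with the readthrough gene PDCD6-AHRR, so how the reads were divided between the AHRR rows is uncertain. When the minimum was dropped and all 21400 genes above 0 were tested, the first row gave 0.60 ± 0.13 for PM10 in normal hIECs (limma, adjusted p = 0.0474) and 0.42 ± 0.13 in inflamed hIECs (adjusted p = 0.0904).

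The classical CYP1 enzymes of the liver and gut were close to absent. CYP1A1 (ENSG00000140465, chr15:74719542-74725536, minus strand), usually the most inducible AHR target, was listed at 0 in both normal libraries and in both inflamed libraries. With PM10 it read 0 and 0.241 FPKM in normal hIECs and 0.432 and 0.515 in inflamed hIECs. All 3 values above 0 thus fell in PM10-treated libraries, within a few multiples of the lowest measurable value, and no fold change is given against groups at 0. CYP1A2 (ENSG00000140505, chr15:74748845-74756607, plus strand), an enzyme mainly of liver, was listed at 0 in all 8 libraries.

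The 250 bases upstream of the annotated start are printed below for the CYP1A1, TIPARP and AHRR promoters, since these textbook AHR targets had their higher values under PM10. Sequences are from RefSeq (GRCh38.p14), which gave 10 start sites for 7 of the 9 genes, CYP1B1 and ARNT2 not among them. Each runs 5′ to 3′ on the strand of its gene, in lower case, with capitals for the 5-base core of the xenobiotic response element, GCGTG, or CACGC where the core is on the opposite strand.
CYP1A1, chr15:74725529-74725778, minus strand: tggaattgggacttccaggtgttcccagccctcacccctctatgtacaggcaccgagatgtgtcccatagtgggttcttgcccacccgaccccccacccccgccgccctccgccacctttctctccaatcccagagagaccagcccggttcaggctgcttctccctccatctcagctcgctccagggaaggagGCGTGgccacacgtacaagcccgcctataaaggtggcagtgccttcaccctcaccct
TIPARP, first start site, chr3:156674340-156674589, plus strand: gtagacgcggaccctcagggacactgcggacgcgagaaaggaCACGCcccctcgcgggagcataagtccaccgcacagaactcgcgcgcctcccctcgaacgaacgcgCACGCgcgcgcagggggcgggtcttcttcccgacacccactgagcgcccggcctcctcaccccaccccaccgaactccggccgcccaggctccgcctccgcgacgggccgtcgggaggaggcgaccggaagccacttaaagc
AHRR, first start site, chr5:321464-321713, plus strand: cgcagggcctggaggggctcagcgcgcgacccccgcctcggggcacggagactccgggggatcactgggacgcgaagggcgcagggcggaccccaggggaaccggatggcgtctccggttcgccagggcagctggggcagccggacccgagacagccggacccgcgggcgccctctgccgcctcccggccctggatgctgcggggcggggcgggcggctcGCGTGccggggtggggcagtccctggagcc
In windows of 300 bases, 250 before and 50 after the start, CYP1A1 held 1 core, 57 bases upstream, the TIPARP start shown held 2, at 208 and 142 bases upstream, and the AHRR start shown held 1, at 30 bases upstream. The other AHRR start held 2 cores, at 247 and 42 bases upstream, CYP1B1-AS1 held 1 at 24 bases upstream, and AHR held 1 at 37 bases past its start. No core was found in the windows of ARNT, CYP1A2 or the other TIPARP starts. At least 1 core on either strand was present in 36.5% of all 35116 windows of this length, so a match is a description of these bases and not a mapped binding site.

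CYP1B1 is the CYP1 enzyme found mostly outside the liver and the one that hydroxylates polycyclic hydrocarbons and estradiol. Among the 6 tested members it had the largest PM10 and cytokine changes on the log2(FPKM + 1) scale. By FPKM fold, CYP1B1-AS1 exceeded it for PM10 in inflamed hIECs (7.41 against 6.93) and for cytokines with PM10 (5.84 against 3.96). The CYP1B1 gene (ENSG00000138061, chr2:38066973-38109902, minus strand) measured 6.91 and 5.95 FPKM in normal hIECs and 65.7 and 62.8 in PM10-treated normal hIECs. It measured 37.6 and 35.7 in inflamed hIECs, and 254.3 and 254.1 in PM10-treated inflamed hIECs. No 2 groups overlapped, and the order was normal, inflamed, PM10-treated normal and PM10-treated inflamed. PM10 raised the mean from 6.43 ± 0.68 to 64.3 ± 2.1 FPKM in normal hIECs (SD, n = 2 libraries), a 9.99-fold rise, and from 36.7 ± 1.3 to 254.2 ± 0.11 FPKM in inflamed hIECs, a 6.93-fold rise. In the fit these were log2 changes of 3.14 ± 0.07 (limma, adjusted p = 3.82e-06) and 2.76 ± 0.07 (adjusted p = 9.78e-06), each the highest of 14206 and each with the smallest p of its comparison. Without normal replicate 2 the change in normal hIECs was 3.04.

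Cytokines alone also raised CYP1B1. Inflamed hIECs exceeded normal hIECs 5.70-fold, or by 2.35 ± 0.07 on the log2 scale (limma, adjusted p = 2.98e-07), and with PM10 on both sides the excess was 3.96-fold, or 1.97 ± 0.07 (adjusted p = 4.8e-07). These cytokine changes ranked 124 and 205 from the top of 14206, whereas each PM10 change was the highest of its comparison. PM10 and cytokines together gave 39.5 times the level of normal hIECs. How the treatments combined depended on the scale. PM10 added 57.8 FPKM to the mean of normal hIECs and 218 FPKM to that of inflamed hIECs, a difference on the linear scale that was not tested, whereas on the log2 scale the PM10 change was smaller in inflamed hIECs by 0.38 ± 0.10, which missed the threshold (adjusted p = 0.0648). That adjusted p lay between 0.0164 and 0.185 over the alternatives, passing at lower pseudocounts, without mitochondrial genes and without normal replicate 1.

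**Figure D1:**
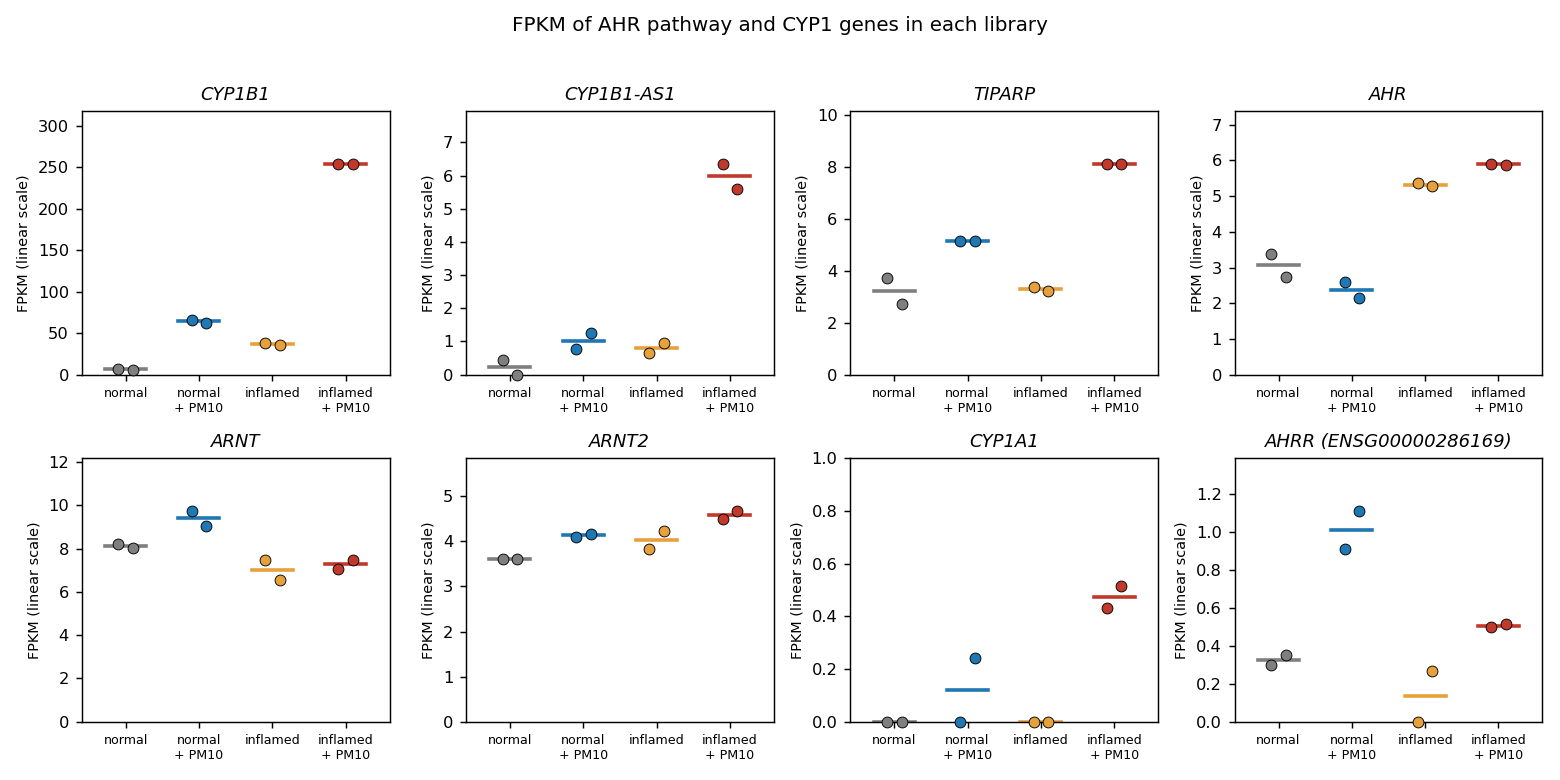
FPKM (linear y axes starting at 0) of 8 of the rows in each of the 4 groups, with a point for each library and a line for the mean of the 2 libraries. CYP1B1 climbs from under 7 FPKM in normal hIECs to 254 FPKM with both treatments, TIPARP and CYP1A1 are highest in PM10-treated inflamed hIECs, and AHR follows the cytokines.

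Within the cytochrome P450 family, CYP1B1 went from rank 3 by FPKM in normal hIECs to rank 1 in the other groups. Of 55 protein-coding P450 genes, between 16 and 21 were above 0 in a library. CYP1B1 made up 13.8% and 12.5% of their summed FPKM in normal hIECs, 60.4% and 59.5% with PM10, 46.5% and 44.7% in inflamed hIECs, and 84.9% and 85.3% with both. In normal hIECs it stood behind CYP51A1, a sterol demethylase, and CYP2R1, a vitamin D hydroxylase, and in the other 6 libraries it was first. Among all genes its rank by FPKM went from 6721 and 7098 in normal hIECs to 214 and 211 in PM10-treated inflamed hIECs. PM10 called 2 of the 17 tested P450 genes in each kind of hIEC, CYP1B1 included, where 9.23% of all genes were called in normal and 15.2% in inflamed hIECs, so these counts are near the background. CYP26A1, a retinoic acid hydroxylase, was lower in PM10-treated normal hIECs (log2 change −0.55 ± 0.12, limma, adjusted p = 0.0343) and CYP7B1, an oxysterol hydroxylase, was higher in PM10-treated inflamed hIECs (0.38 ± 0.09, adjusted p = 0.0313). Both were named after their values were seen.

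**Figure D2:**
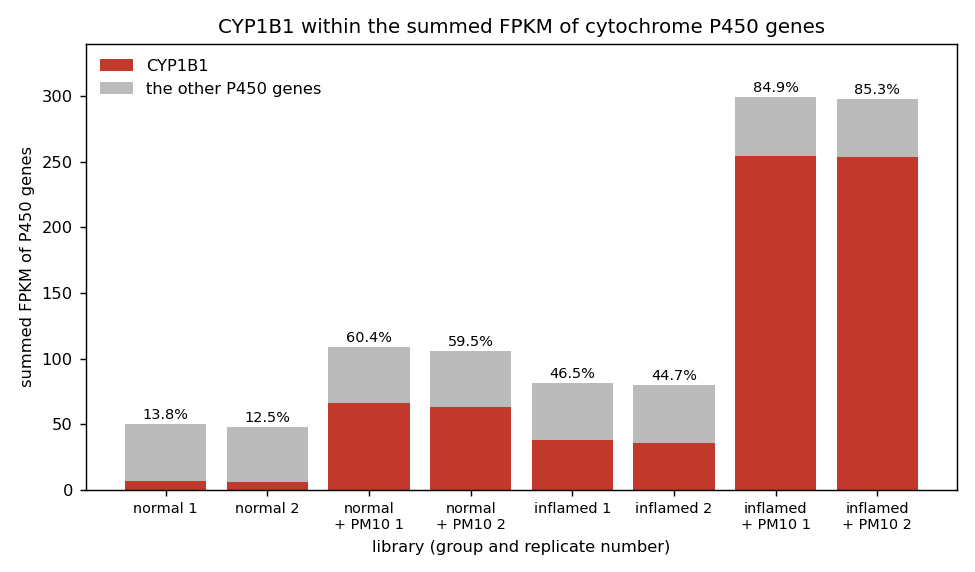
Summed FPKM of 55 cytochrome P450 genes in each of the 8 libraries (linear y axis starting at 0), divided into CYP1B1 and the other genes, with the percentage held by CYP1B1 above each bar. The grey part stays near the same height in all libraries, while the CYP1B1 part grows from 13.8% and 12.5% of the sum in normal hIECs to 84.9% and 85.3% in PM10-treated inflamed hIECs.

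CYP1B1-AS1, a long noncoding RNA read from the opposite strand, followed CYP1B1 at a much lower level. This gene (ENSG00000232973, chr2:38073447-38231651, plus strand) read 0.448 and 0 FPKM in normal hIECs, 0.783 and 1.26 in PM10-treated normal hIECs, 0.647 and 0.965 in inflamed hIECs, and 6.36 and 5.59 in PM10-treated inflamed hIECs. The last pair stood well clear of the rest, and the PM10-treated normal and inflamed pairs overlapped. PM10 in inflamed hIECs gave a log2 change of 1.95 ± 0.20 (limma, adjusted p = 0.00146), the third highest of 14206, and 0.74 ± 0.20 in normal hIECs, which did not pass (adjusted p = 0.0599). The latter was 0.47 without normal replicate 2 (adjusted p = 0.203) and 1.01 without normal replicate 1 (adjusted p = 0.0219), and its adjusted p ran from 0.0219 to 0.235 over the alternatives. Cytokines gave 0.58 ± 0.20 without PM10 (adjusted p = 0.0395) and 1.79 ± 0.20 with PM10 (adjusted p = 0.000162). The smaller of these cytokine changes rests on single libraries, since it was 0.31 without normal replicate 2 (adjusted p = 0.206), 0.45 without inflamed replicate 2 (adjusted p = 0.179) and 0.85 without normal replicate 1 (adjusted p = 0.0111). CYP1B1-AS1 reached 1 FPKM in 3 libraries, all of them PM10-treated, so it entered the test through the groups where it was high, and its calls and rank are given as a description. With no filter on low values, where it entered through 7 libraries of all 4 groups, the change with PM10 in inflamed hIECs had an adjusted p of 0.00354.

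The libraries carried no strand information, so reads from the stretch where both genes lie cannot be told apart. CYP1B1 and CYP1B1-AS1 share 678 exon bases, which are 11.3% of the exon bases of CYP1B1 and 6.44% of those of CYP1B1-AS1. As a percentage of CYP1B1 FPKM, CYP1B1-AS1 was 6.49% and 0% in normal hIECs, 1.19% and 2.01% with PM10, 1.72% and 2.70% in inflamed hIECs, and 2.50% and 2.201% with both. The percentage thus lay between 1.19% and 2.70% in the 6 treated libraries, over a range of CYP1B1 from 35.7 to 254.3 FPKM. RMDN2-AS1, which shares 69 exon bases with CYP1B1, also rose out of 0 only in the PM10-treated libraries, at 0.241 and 0.386 FPKM in normal and 0.945 and 1.13 in inflamed hIECs. RMDN2, with 96 shared bases on the opposite strand, ran from 2.10 to 4.80 FPKM and was not called for PM10 in normal (log2 change 0.47 ± 0.20, adjusted p = 0.162) or inflamed hIECs (0.04 ± 0.20, adjusted p = 0.92). How far reads of CYP1B1 entered the values of these neighbours was not tested.

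Across all 6 members that reached the minimum, PM10 calls were in the higher direction only. In normal hIECs 2 were called, CYP1B1 and TIPARP, where 9.23% of all tested genes were called, 5.51% higher and 3.72% lower (783 genes higher and 528 lower, or 563 and 749 with median centring). In inflamed hIECs CYP1B1 and TIPARP were called, and also CYP1B1-AS1, which had passed the filter through PM10-treated libraries, against 15.2% of all genes, 6.22% higher and 9.02% lower (883 and 1282 genes, or 1136 and 1102 with quantile normalization). Each of these genes rose at least 2-fold, as 0.246% of all genes did (0.669% in either direction). In normal hIECs only CYP1B1 rose 2-fold, against 0.12% of all genes (0.345% in either direction). Cytokines without PM10 gave 3 calls, all higher (CYP1B1, CYP1B1-AS1 and AHR), where 56.2% of all genes were called, 25.9% higher and 30.3% lower. CYP1B1 was the only member past 2-fold there, as were 9.18% of all genes (4.05% higher). Cytokines with PM10 gave 5, of which ARNT was the only lower member, against 65.4% of all genes, 25.8% higher and 39.6% lower. CYP1B1, CYP1B1-AS1 and AHR passed 2-fold in that comparison, as did 12.9% of all genes (5.28% higher). With most genes of the table called, neither cytokine count is read as a result about the members. The interaction gave 1 call, CYP1B1-AS1 (1.21 ± 0.28, adjusted p = 0.0485, and between 0.0248 and 0.794 over the alternatives), against 6.6% of all genes, 2.11% higher and 4.48% lower, and 0.88% past 2-fold, 0.451% higher (300 higher and 637 lower, or 453 and 539 with median centring). The median log2 change of all tested genes was −0.11 for cytokines with PM10, and between −0.06 and 0.06 in the other comparisons. The members that were not tested were AHRR, CYP1A1 and CYP1A2.

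**Figure D3:**
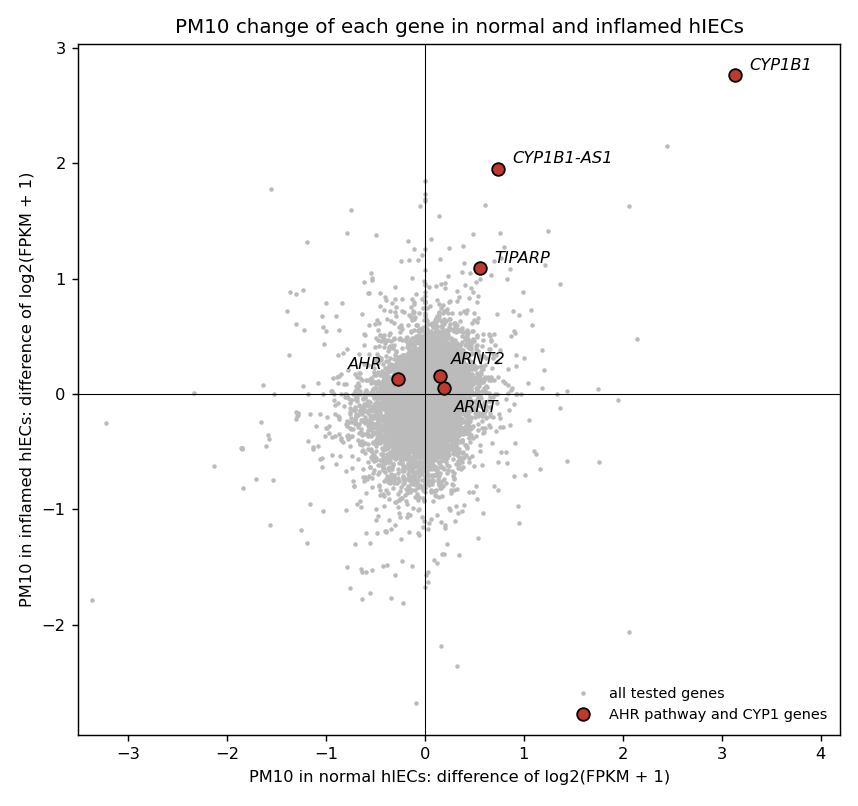
Change with PM10 in normal hIECs (x axis) and in inflamed hIECs (y axis), both as differences of mean log2(FPKM + 1), for the 14206 tested genes (grey) and the 6 tested members (red). CYP1B1 lies farthest to the upper right, CYP1B1-AS1 and TIPARP lie at or beyond the upper edge of the dense cloud, and AHR, ARNT and ARNT2 lie within it.

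**Figure D4:**
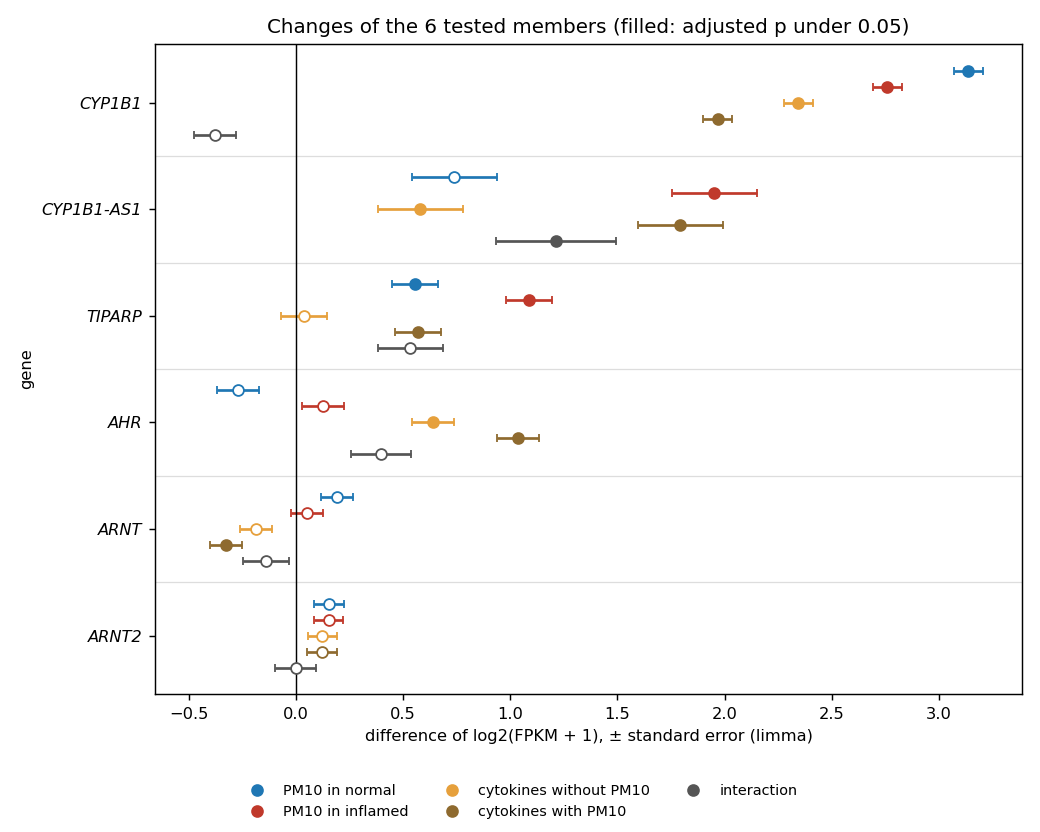
Differences of mean log2(FPKM + 1) with standard errors from limma for the 6 tested members in 5 comparisons, with filled points for an adjusted p under 0.05. CYP1B1 has 4 filled points between 1.97 and 3.14, AHR is filled for the cytokine comparisons only, and ARNT2 has none.

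The chaperones that hold AHR in the cytosol were abundant. HSP90AB1 lay between 256.7 and 315.5 FPKM, HSP90AA1 between 107.5 and 178.0 FPKM, and PTGES3, which encodes p23, between 64.97 and 85.1 FPKM. With PM10 HSP90AA1 did not pass the test in normal (log2 change 0.24, limma, adjusted p = 0.0966) or inflamed hIECs (0.27, adjusted p = 0.0562), nor did HSP90AB1 (0.17 in each, adjusted p = 0.119 and 0.107) or PTGES3 (0.11 and 0.06, adjusted p = 0.352 and 0.605). Cytokines without PM10 raised HSP90AA1 (0.32, adjusted p = 0.0101) and PTGES3 (0.20, adjusted p = 0.0482). Of 10 coregulators, only EP300, a histone acetyltransferase, was called with PM10 in normal hIECs (0.23, limma, adjusted p = 0.0493). There 5 of 10 had an unadjusted p under 0.05, and 9.23% of all genes were called. None was called in inflamed hIECs, where 1 had an unadjusted p under 0.05 and 15.2% of all genes were called. The EP300 call was kept in 1 of the 8 fits without single libraries. Cytokines without PM10 raised the coregulators NRIP1 (0.53), NCOR1 (0.51) and MED1 (0.37) and lowered none, where 56.2% of all genes were called.

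Of 13 other textbook AHR targets, 7 were at 0 in all 8 libraries, namely ALDH3A1, UGT1A1, UGT1A6, GSTA1, GSTA2, EREG and ABCG2, and 6 were tested. In normal hIECs PM10 raised 2 of the 6 (5 of 6 at an unadjusted p under 0.05), where 9.23% of all genes were called, with a list median of −0.11 on the log2 scale against 0.06 over all genes. These were NQO1, a quinone reductase that NRF2 also drives, from 7.62 and 7.96 to 13.2 and 11.5 FPKM (0.60 ± 0.07, limma, adjusted p = 0.00484), and NFE2L2, which encodes NRF2 itself (0.38 ± 0.08, adjusted p = 0.0355). The NQO1 call was kept in all 8 fits without single libraries, the NFE2L2 call in 1 of them, and without normal replicate 2 NFE2L2 changed by 0.25 (adjusted p = 0.0511). In inflamed hIECs none was called (limma, 4 of 6 at an unadjusted p under 0.05), where 15.2% of all genes were, with a median of 0.09 against −0.01. Cytokines without PM10 raised 4 and lowered 1 of the 6, where 56.2% of all genes were called, with the plasminogen activator inhibitor SERPINB2 the lower gene (−1.05) and NQO1 the most raised (2.24), followed by STC2 (1.01), the amino acid carrier SLC7A5 (0.67) and the P450 CYP2S1 (0.46).

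The NRF2 enzymes, a neighbouring xenobiotic response, gave 3 calls of 6 with PM10 in normal hIECs, where 9.23% of all genes were called, and 1 in inflamed hIECs, where 15.2% were. These counts ran from 0 to 3 and from 0 to 1 when each library was left out in turn. In normal hIECs all 3 were higher, HMOX1 by 0.59, TXNRD1 by 0.35 and SRXN1 by 0.26, with a list median of 0.24 against 0.06 over all genes. In inflamed hIECs only TXNRD1, a thioredoxin reductase, was called (0.32, limma, adjusted p = 0.00984). HMOX1, which degrades heme, read 6.90 and 6.02 FPKM in normal hIECs, 10.5 and 9.86 with PM10, 4.94 and 4.75 in inflamed hIECs and 5.17 and 4.75 with both, so that PM10 separated its pairs in normal hIECs only, and the difference between the PM10 changes passed the test (−0.56 ± 0.11, adjusted p = 0.0323), though in only 2 of the 8 fits without single libraries. Cytokines without PM10 raised 4 of the 6 and lowered 1, HMOX1, where 56.2% of all genes were called. SLC7A11, the cystine carrier, was the most raised (1.03), but it reached 1 FPKM in libraries with cytokines alone and so is a description, followed by GCLM (0.93), SRXN1 (0.82) and TXNRD1 (0.80).

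Enzymes that make AHR ligands from tryptophan were at or near 0 without cytokines, apart from AFMID. IDO1, which opens the kynurenine route, was at 0.184 and 0 FPKM in normal hIECs, at 0 in PM10-treated normal hIECs, at 128 and 125 in inflamed hIECs and at 147.2 and 147.2 in PM10-treated inflamed hIECs. Of 7 such genes, 5 were tested and 4 were higher with cytokines without PM10 (56.2% of all genes were called, 25.9% higher), IDO1 by 6.88, IL4I1 by 2.67, TDO2 by 1.77 and KYNU by 1.39 on the log2(FPKM + 1) scale, with normal libraries of IDO1, TDO2 and KYNU at or near 0. All 4 reached 1 FPKM in libraries with cytokines alone and so entered the test through the groups where they were high. The count could also be lower when a single library was left out, and it is given as a description. With PM10 none of the 5 was called in normal hIECs (limma), where 9.23% of all genes were called. None of the 5 had an unadjusted p under 0.05 there. Of the 5, 1 was called higher and 1 lower in inflamed hIECs, where 15.2% of all genes were called. In inflamed hIECs the phenylalanine and tryptophan oxidase IL4I1 rose further, from 7.08 and 7.81 to 9.97 and 9.38 FPKM (0.34 ± 0.08, adjusted p = 0.0314, kept in 2 of the 8 fits without single libraries), and TDO2 fell from 3.10 and 2.54 to 0.655 and 0.679 FPKM (−1.19 ± 0.13, adjusted p = 0.00204). Since TDO2 reached 1 FPKM in the 2 inflamed libraries without PM10 alone, its fall is likewise a description.

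**Figure D5:**
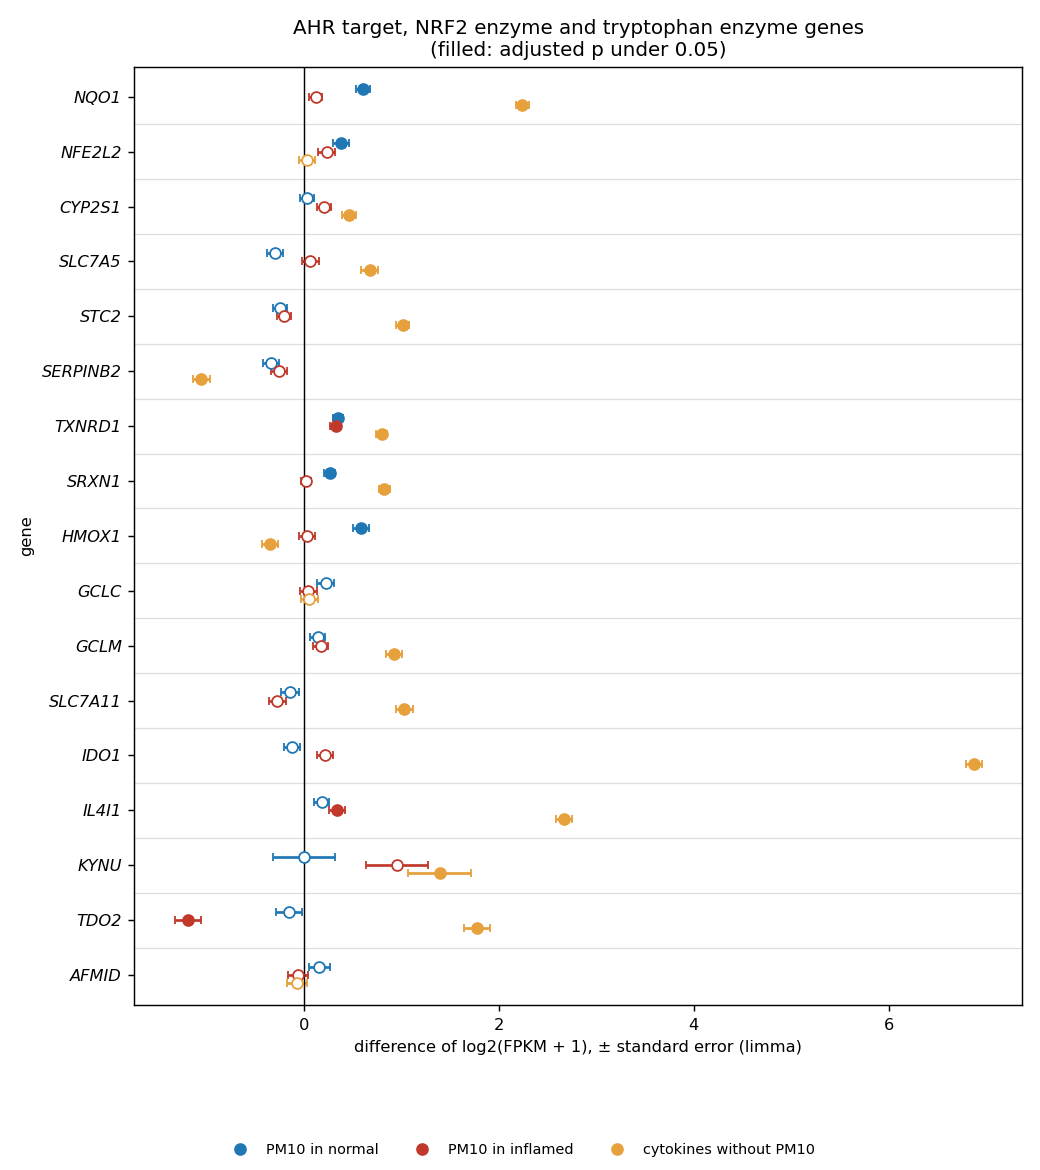
Differences of mean log2(FPKM + 1) with standard errors from limma for the tested AHR targets, NRF2 enzymes and tryptophan enzymes in 3 comparisons, with filled points for an adjusted p under 0.05. PM10 points stay between −1.19 and 0.96, whereas cytokine points reach 6.88 at IDO1.

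Of 4 genes for P450 electron donors, none was called with PM10 in normal or inflamed hIECs (limma, 1 and 2 of 4 at an unadjusted p under 0.05), where 9.23% and 15.2% of all genes were called, so that 0 of 4 is near the background. POR, the reductase that feeds all microsomal P450 enzymes, read 19.2 and 19.2 FPKM in normal hIECs, 20.3 and 19.9 with PM10, 11.8 and 12.5 in inflamed hIECs, and 11.02 and 10.4 with both. Cytokines lowered it by a log2 change of −0.62 without PM10 (limma, adjusted p = 6.86e-05), opposite in direction to CYP1B1, and raised CYB5A and CYB5B, the cytochrome b5 genes, by 0.62 and 0.52, where 56.2% of all genes were called. Of 19 further xenobiotic P450 genes, 12 were at 0 in all libraries, CYP3A4 reached 0.301 FPKM in a single library, and none of the 5 tested was called with PM10 in normal or inflamed hIECs (1 of 5 at an unadjusted p under 0.05 in each), while cytokines without PM10 raised CYP2U1 (0.58) and lowered CYP2R1 (−0.55), CYP2D6 (−0.51) and CYP2E1 (−0.49), the last of which reached 1 FPKM in libraries without cytokines alone. Fewer of these P450 genes could be called with cytokines without PM10 when a single library was left out. Among the other xenobiotic receptors, NR1I2 (PXR) was at 0 throughout. VDR, the vitamin D receptor, was the only one of the 4 tested that was called with PM10, from 0.953 and 0.856 to 1.55 and 1.78 FPKM in normal hIECs (0.48 ± 0.09, limma, adjusted p = 0.0199) and from 3.51 and 3.08 to 5.28 and 5.29 in inflamed hIECs (0.55 ± 0.09, adjusted p = 0.00777). Set against 9.23% and 15.2% of all genes, 1 of 4 is not read as a result about the list, and each call was kept in 5 of the 8 fits without single libraries, the normal one being lost without normal replicate 2 (adjusted p = 0.0675). Cytokines without PM10 raised VDR (1.17) and lowered RXRB (−0.59).

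The bHLH-PAS relatives that compete for or resemble ARNT were called in small numbers with PM10. Of 10 tested, PM10 lowered 2 in normal hIECs (9.23% of all genes were called, and 0 to 4 of the 10 without single libraries), NPAS1 (−0.74, limma, adjusted p = 0.0179) and the hypoxia factor EPAS1 (−0.35, adjusted p = 0.0244). It raised 1 in inflamed hIECs (15.2% of all genes, and 0 to 2 of the 10 without single libraries), HIF1A (0.27, adjusted p = 0.0437). Cytokines without PM10 called 8 of the 10, 6 higher and 2 lower, against 56.2% of all genes. The count was lower in every fit without a single library. The largest changes were those of the clock-linked NPAS2 (1.99) and ARNTL2 (1.58) and a fall of HIF3A (−1.16). Among these 8, ARNTL2 reached 1 FPKM in libraries with cytokines alone and SIM2 (−0.33) in libraries without them alone, so both entered the test through the groups where they were high and are given as a description. NPAS3 (1.17) also passed 2-fold, and its levels were uneven within groups, from 0.209 and 1.42 FPKM in normal hIECs to 2.86 and 2.81 in inflamed hIECs.

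The closest expression profiles over the 8 libraries were found by the root mean square difference of log2(FPKM + 1) after centring each gene. CYP1B1 had no close match, the nearest being TFPI2 at 0.90, then C3orf80, CYP1B1-AS1, PLEKHA7 and HAPLN4 up to 1.10, against an SD of 1.83 for its own profile. TIPARP was followed more closely, by RASGRP3, KCNE4, CDKN2B, EXT1 and RGL1 at 0.15 to 0.18, against 0.47. AHR had the nearest neighbours, SGO2, ATAD2, ASPH, MASTL and STK38L at 0.06 to 0.07, against 0.44. These genes were picked for their likeness, so their levels carry no test.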

How the data were processed

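RNA was sequenced from 8 libraries of hIECs in 4 groups of 2, defined by the sample records. The authors prepared non-strand-specific poly-A libraries, trimmed paired reads with Cutadapt and Sickle, aligned them to GRCh38 with HISAT2 and estimated FPKM per gene with StringTie, and these deposited FPKM values were used without rescaling. The annotation release is not given in the sources used here, and 99.5% of the 60558 gene identifiers were found in GENCODE 44, which gave positions and overlaps. No counts were used, so depth enters only through the lowest value above 0.

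limma 3.58.1 in R 4.3.3, with a trend of variance on mean, was fitted to log2(FPKM + 1) in all 8 libraries for genes reaching 1 FPKM in 2 or more libraries, without a replicate block. P-values were two-sided, Benjamini-Hochberg adjusted over all tested genes within each of 5 comparisons, with a threshold of 0.05. A fold change on this scale understates the change of low genes. Alternatives changed the pseudocount, filter, scaling, block, trend, groups in the fit and libraries. The scripts were tested on simulated data. Members and gene lists (AHR chaperones, coregulators, bHLH-PAS relatives, AHR targets, NRF2 enzymes, tryptophan enzymes, P450 genes and their electron donors, xenobiotic receptors, cell type markers) were chosen with earlier results of these data known. For the comparisons described, the rule named the 4 called genes of each list with the largest change and any called at 2-fold, and for 3 members the 5 nearest profiles. Promoter sequences were from RefSeq. An item of the gene lists is not reported here.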

Additional observations from a re-analysis of the deposited data

Results flagged for a closer look

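In 4 of the 60 tested members and pathway genes (6.67%) the change with PM10 in inflamed hIECs differed from that in normal hIECs by a test of the difference itself (the interaction term in limma), a share close to the 6.6% called among all tested genes. None of the 4 was called in every fit without single libraries: CYP1B1-AS1 was called in 1 of 8 such fits, HMOX1 and NQO1 each in 2 of 8, and TDO2 in 2 of the 6 that tested it. CYP1B1-AS1 had a difference of 1.21 ± 0.28 on the log2 scale (adjusted p = 0.0485), but it passed the filter on low values through PM10-treated libraries alone, and the call was lost with no filter, with no trend, with the replicate block and at a pseudocount of 0.1 (adjusted p = 0.794). TDO2, the tryptophan dioxygenase, had a difference of −1.04 ± 0.19 (adjusted p = 0.0247), but all normal libraries with or without PM10 were at 0 except 1 at 0.246 FPKM, and it entered the test through the untreated inflamed pair, so the inflamed pairs alone had a measurable level to compare. HMOX1 differed by −0.56 ± 0.11 (adjusted p = 0.0323), with a PM10 change of 0.59 in normal and 0.03 in inflamed hIECs (adjusted p = 0.836). NQO1 differed by −0.48 ± 0.10 (adjusted p = 0.0333), with 0.60 in normal and 0.12 in inflamed hIECs (adjusted p = 0.286), where the untreated level was 40.2 and 40.8 FPKM. Groups of 2 libraries were too small for a search for single outlying libraries.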

How the results depend on the processing

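CYP1B1 was called with PM10 and with cytokines under all 18 alternatives that gave it a value, with PM10 changes from 3.04 to 3.30 in normal and from 2.72 to 2.80 in inflamed hIECs on the log2 scale. Of the 529 alternative values of member changes, 479 kept their direction and side of the threshold, 29 lost the call, 13 gained it and 8 changed sign. Members called with PM10 in normal hIECs fell from 2 to 1 with only the groups compared, where all calls fell from 1311 to 23, and ran from 1 to 3 when each library was left out in turn. Leaving out a library gave 3 to 3 members with PM10 in inflamed hIECs, 2 to 4 with cytokines without PM10 and 5 to 5 with PM10. For the interaction, 0 members were called with no filter on low values, with at least 1 FPKM in all 8 libraries (where CYP1B1-AS1 was not tested), with no trend and with the replicate block, 2 with median centring and without mitochondrial genes, and 0 to 2 without single libraries. All calls went from 192 to 2601 for PM10 in normal hIECs, from 672 to 2997 for PM10 in inflamed hIECs and from 260 to 1257 for the interaction when a library was left out, the highest of each without normal replicate 1. The sign of changes that did not pass the test turned for TIPARP with cytokines without PM10 (−0.012 without mitochondrial genes, −0.13 to 0.21 without single libraries), for the ARNT2 interaction (0.045 with median centring, 0.057 with quantile normalization, −0.058 to 0.055 without single libraries) and for ARNT with PM10 in inflamed hIECs (−0.031 to 0.13 without single libraries). The causes were not tested. Differences between replicates 1 and 2 correlated between −0.0015 and 0.079 across groups, so no strong shift shared by replicate number was seen. The sample labels do not say whether libraries were paired, and correlations dominated by noise between libraries could miss a weak pairing. With the replicate block, called genes went from 1311 to 1051, 2165 to 1966, 7988 to 7957, 9286 to 9264 and 937 to 762 in the 5 comparisons, and CYP1B1-AS1 lost its calls for the interaction (adjusted p = 0.0734) and for cytokines without PM10 (adjusted p = 0.0565). Depth limits AHRR, CYP1A1, CYP1A2 and the lower values of CYP1B1-AS1, which lay within a few multiples of the lowest value above 0. The summed FPKM of a library ran from 403354 to 468392, and fold values above are not rescaled for it. When every library was rescaled to the same sum, 5 of 12 ratios of group means of CYP1B1, TIPARP and AHR moved beyond the spread between libraries, and 7 did not.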

Other observations

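Outside the pathway lists, few genes changed at least 2-fold with PM10 in both kinds of hIEC. Besides CYP1B1, 2 of the 17 genes that rose 2-fold in normal hIECs and of the 35 in inflamed hIECs did so in both, and 1 gene fell in both, of 32 and 60. All 3 were named after their values were seen. VGF, a secreted neuropeptide precursor, read 1.12 and 1.43 FPKM in normal hIECs, 3.79 and 4.82 with PM10, 1.44 and 1.94 in inflamed hIECs, and 5.23 and 4.41 with both (log2 changes 1.22 and 1.12, limma, adjusted p = 0.00497 and 0.00335). SULT1E1, the estrogen sulfotransferase, fell from 22.0 and 21.0 to 8.93 and 8.76 FPKM in normal hIECs (log2 change −1.19, limma, adjusted p = 0.00115). In inflamed hIECs it fell from 4.96 and 4.68 to 1.60 and 1.18 FPKM (log2 change −1.29, limma, adjusted p = 0.000352). AC087721.2, a protein-coding locus with no gene name, was at 0 in both normal libraries and read 2.32 and 4.27 FPKM with PM10, 0 and 0.843 in inflamed hIECs, and 4.92 and 1.97 with both, so that it reached 1 FPKM in PM10-treated libraries alone and entered the test through them.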
